A study of Mus musculus with 4 samples.

Results

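A set of 10 genes of the hypoxia response and of glycolysis were followed through 4 arrays of mouse embryonic fibroblasts, mixed mesenchymal cells cultured from minced embryos. They are Car9, Pfkp, Adm, Slc2a1, Vegfa, Ldha, Pgk1, Hk2, Bnip3 and Pdk1, taken by name with earlier results of these data known. Every probe set that the platform's annotation pairs with one of them alone was used. These 10 of 18194 annotated genes have 21 of 34958 probe sets, and all 10 passed the filter on low values that 12290 genes passed. The study compared FAK-/- fibroblasts given endothelin-1 (ET-1) for 24 h, FAK-/- fibroblasts left untreated, FAK+/+ fibroblasts given ET-1 for 24 h and FAK+/+ fibroblasts left untreated, with 1 array in each group. FAK (focal adhesion kinase) signals at the sites where integrins hold cells to the matrix, and ET-1 is a vasoactive peptide that acts through G protein-coupled receptors. All cells were at passage 5 and went without serum for 24 h before that period, and the labels name no low-oxygen culture in any group. Per the labels, cells were taken from FAK-/- and FAK+/+ mice, no Cre driver is named, and the number of embryos or lines behind each genotype is not stated.

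Cells short of oxygen stabilise the alpha subunits of the hypoxia-inducible factors, which pair with ARNT and bind the letters ACGTG or GCGTG near their target genes. In normal oxygen prolyl hydroxylases mark these alpha subunits, and the VHL protein sends them for destruction. The targets bring in glucose, run glycolysis to lactate, keep pyruvate out of the mitochondria, export acid, remove mitochondria and call in blood vessels. Many of them also answer to growth factors, serum and adhesion in normal oxygen, and fibroblasts use glycolysis heavily in culture.

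In FAK-/- cells the 10 genes went in different directions. Averaged over treatments, Car9 and Pfkp were 5.68-fold and 5.08-fold above wild type, Adm, Bnip3 and Slc2a1 were 4.38-fold, 3.99-fold and 2.23-fold below it, and the other 5 genes differed by less than 1.5-fold. To show what these genes carry in common at their starts, 150 bases before the annotated start are printed for both genes that were higher, for the 3 that were lower, and for Ldha, which did not pass the test. Capitals mark each ACGTG or GCGTG on either strand, read on the gene's strand 5′ to 3′, so that the opposite strand appears as CACGT or CACGC. The sequences are from RefSeq on GRCm38.p6, at chr4:43506876-43507025 (plus strand) for Car9, chr13:6648772-6648921 (minus strand) for Pfkp, chr7:138909507-138909656 (minus strand) for Bnip3, chr7:110627507-110627656 (plus strand) for Adm, chr4:119108595-119108744 (plus strand) for Slc2a1 and chr7:46845654-46845803 (plus strand) for the first of the 2 annotated starts of Ldha.
Car9: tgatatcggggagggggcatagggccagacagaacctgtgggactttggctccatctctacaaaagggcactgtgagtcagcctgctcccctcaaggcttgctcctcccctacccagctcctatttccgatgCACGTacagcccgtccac
Pfkp: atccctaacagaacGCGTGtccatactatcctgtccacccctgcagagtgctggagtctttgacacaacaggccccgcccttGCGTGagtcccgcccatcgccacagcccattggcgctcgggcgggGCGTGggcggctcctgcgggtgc
Bnip3: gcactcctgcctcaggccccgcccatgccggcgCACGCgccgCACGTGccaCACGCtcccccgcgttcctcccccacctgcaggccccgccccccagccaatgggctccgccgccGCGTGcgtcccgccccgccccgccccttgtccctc
Adm: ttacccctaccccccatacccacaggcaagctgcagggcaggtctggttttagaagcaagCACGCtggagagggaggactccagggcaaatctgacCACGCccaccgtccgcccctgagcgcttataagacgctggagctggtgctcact
Slc2a1: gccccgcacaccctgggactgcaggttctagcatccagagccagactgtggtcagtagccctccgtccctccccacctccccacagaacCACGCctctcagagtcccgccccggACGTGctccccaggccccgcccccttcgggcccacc
Ldha: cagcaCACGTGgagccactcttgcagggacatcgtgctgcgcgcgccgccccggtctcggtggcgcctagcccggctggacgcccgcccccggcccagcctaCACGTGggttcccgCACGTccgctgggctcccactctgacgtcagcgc

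All 10 genes matched a RefSeq promoter by symbol, and 3 of them, Vegfa, Ldha and Pdk1, have more than 1 annotated start. In the 250 bases before a start, ACGTG or GCGTG was present at 11 of the 13 starts of these genes, against 38.6% of all 32851 starts in the same table, and each of the 10 genes had it at 1 start or more, against 41.54% of 27025 genes. Both motifs hold a CG dinucleotide, and the members' windows are rich in CG, with a median of 13 per window against 6 over all windows. Among the 10362 windows with at least 13, 66.76% held a match. Car9 had 1 match, 18 bases before its start, and Pfkp had 3 matches, all GCGTG on its own strand. Bnip3 had 5 matches in 4 separate places, where CACGTG counts on both strands, and Ldha had 5 in 3 places before its first start. The start of Vegfa that lies farther upstream and the downstream start of Pdk1 held none. Genes that were higher, lower or not called in FAK-/- cells therefore all held these letters, and a match in this window is a description of sequence and not a measured binding site.

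**Figure D1:**
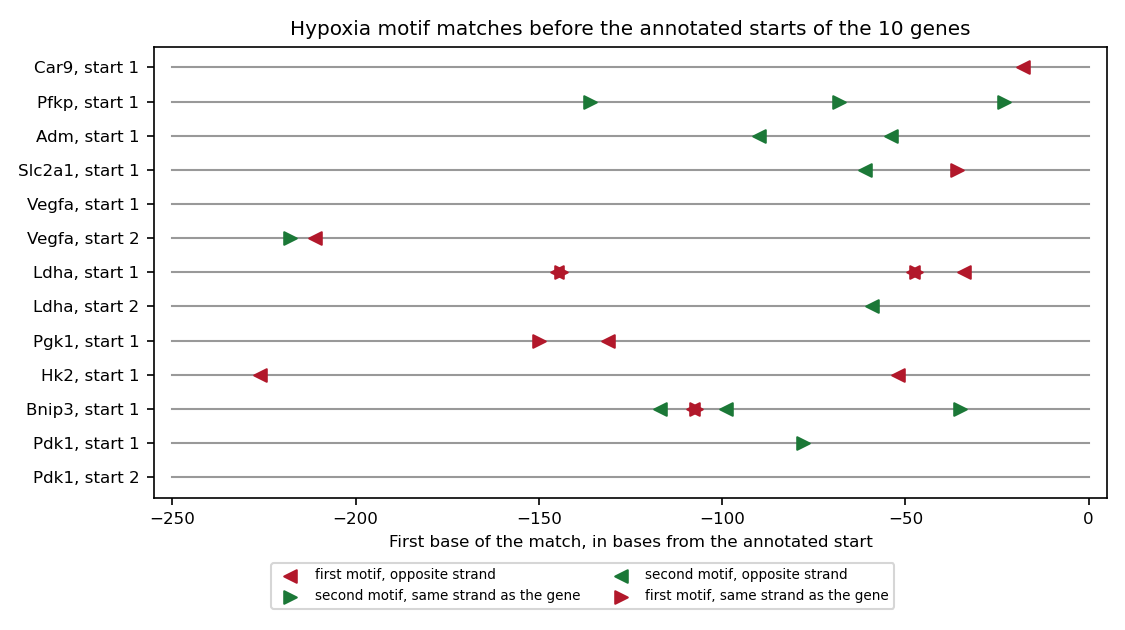
Matches of ACGTG (first motif, red) and GCGTG (second motif, green) in the 250 bases before each annotated start of the 10 genes, by distance of the first base from the start. Right-pointing triangles lie on the gene's strand and left-pointing ones on the opposite strand. Overlapping triangles that point both ways are CACGTG, and 11 of 13 starts hold a match.

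The values are log2 RMA values as deposited. Affymetrix labelling runs from the 3' end of a transcript, and control transcripts stood apart in wild type after ET-1. For Gapdh the 3' signal was 3.79 (log2) above the 5' signal on that array and 0.85 to 0.90 above it in the other 3 arrays, and all 4 poly-A spike-ins had their widest gap between both ends in that array. Every comparison with the ET-1-treated wild-type array carries this difference, and its part in the results was not tested. The untreated genotype difference does not use that array. A gene was tested when at least 1 array read above the median of all values (8.90), the level filter. Averaged over treatments, a gene was called when an additive limma fit of genotype and treatment gave an adjusted p under 0.05. The standard error (SE) of that fit has 1 residual degree of freedom, the genotype by treatment term, and does not measure the spread between cultures. A single difference between 2 arrays has no replicate check.

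By limma, 2 of the 10 genes rose and 3 fell in FAK-/- cells, and 5 were not called. Over all 12290 genes 13.6% were called, 6.6% higher and 7.05% lower. In untreated cells the same 2 genes were higher and the same 3 lower by 2-fold or more, where 9.37% of all genes reached 2-fold, 4.78% higher and 4.59% lower. After ET-1 these 5 genes again passed 2-fold in the same directions, where 12.1% of all genes did, 5.61% higher and 6.53% lower. All 10 genes had the same sign in both treatment states, against 71.83% of all genes, and these 2 differences share no array. The median size of the genotype difference without its sign was 0.74 (log2) for the 10 genes and 0.22 for all genes in untreated cells. The signed medians were -0.17 for the 10 genes and 0.02 for all genes. Because the 10 genes were chosen with earlier results of these data known, these shares and medians are a description and not a test.

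**Figure D2:**
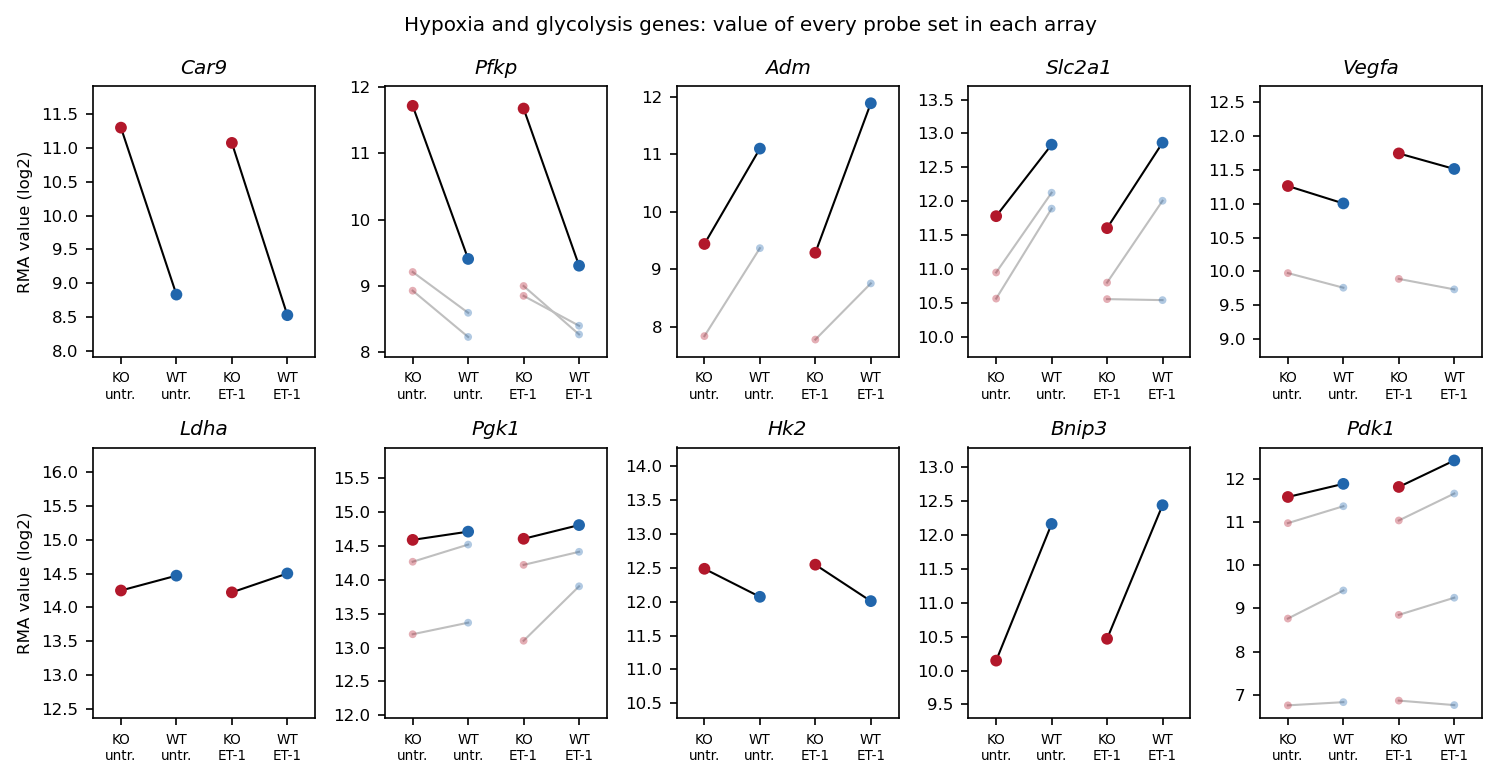
Log2 RMA value of every probe set of the 10 genes in each of the 4 arrays, FAK-/- (KO, red) left of FAK+/+ (WT, blue) within untreated (untr.) and ET-1-treated arrays, with lines joining both genotypes of 1 treatment. Large points are the brightest probe set of a gene and pale points its other probe sets; Car9 reads 11.30 and 11.07 in KO and 8.83 and 8.53 in WT.

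Car9 encodes carbonic anhydrase IX, a membrane enzyme on the outer cell face that hydrates carbon dioxide and helps cells export acid, and it is widely used as a marker of hypoxia. Its single probe set (1427013_at) read 11.30 in untreated FAK-/- cells against 8.83 in untreated wild type, and 11.07 in ET-1-treated FAK-/- cells against 8.53 in ET-1-treated wild type. Both FAK-/- arrays lay above both wild-type arrays. Both wild-type values lay below the median of all values (8.90). Car9 thus passed the level filter only through FAK-/- cells, where it is high, and the fold against wild type is uncertain. Car9 was 5.52-fold higher untreated and 5.83-fold higher after ET-1, and by limma it rose by 2.51 ± 0.10 (log2, SE, adjusted p = 0.00556). Of all genes, 2.03% had a larger genotype difference by size.

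Pfkp encodes the platelet-type phosphofructokinase, which catalyses the committed step of glycolysis. Its brightest probe set (1416069_at) read 11.72 in untreated FAK-/- cells against 9.41 in untreated wild type, and 11.68 in ET-1-treated FAK-/- cells against 9.30 in ET-1-treated wild type. Both genotypes stayed apart by about the same distance in both treatment states. It was 4.97-fold and 5.19-fold higher, and by limma it rose by 2.34 ± 0.11 (adjusted p = 0.00556). The 2 dimmer probe sets of Pfkp were also higher in FAK-/- cells, by 0.62 and 0.70 untreated and by 0.45 and 0.73 after ET-1. The mean of its probe sets put the limma difference at 1.20, still called. Fitted by themselves, the 2 dimmer probe sets were not called by limma (adjusted p = 0.112 and 0.0723).

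Bnip3 encodes an outer mitochondrial membrane protein that binds the autophagy machinery and marks mitochondria for removal. Its single probe set (1422470_at) read 10.15 in untreated FAK-/- cells against 12.17 in untreated wild type, and 10.47 in ET-1-treated FAK-/- cells against 12.44 in ET-1-treated wild type. Bnip3 was thus lower in both FAK-/- arrays than in both wild-type arrays, by 4.05-fold untreated and 3.93-fold after ET-1. By limma it fell by 2.00 ± 0.15 (adjusted p = 0.00764).

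Adm encodes the precursor of adrenomedullin, a secreted peptide that widens vessels. The brightest Adm probe set (1447839_x_at) read 9.44 in untreated FAK-/- cells against 11.10 in untreated wild type, and 9.29 in ET-1-treated FAK-/- cells against 11.89 in ET-1-treated wild type. Adm was thus lower in FAK-/- cells, 3.16-fold without and 6.06-fold with ET-1, and by limma it fell by 2.13 ± 0.26 (adjusted p = 0.0181). The name of this probe set ends in x, Affymetrix's mark for probes that may also match other transcripts. The other Adm probe set read 7.84 in untreated FAK-/- cells against 9.37 in untreated wild type, and 7.78 in ET-1-treated FAK-/- cells against 8.76 in ET-1-treated wild type, a difference of -1.53 and -0.98. Both probe sets were lower in FAK-/- cells, and they disagreed on which treatment state had the larger difference. Fitted by itself, the dimmer Adm probe set was not called by limma (adjusted p = 0.0576).

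Slc2a1 encodes the glucose transporter GLUT1, the main entry point for glucose in most cultured cells. By its brightest probe set (1434773_a_at) Slc2a1 read 11.78 in untreated FAK-/- cells against 12.83 in untreated wild type, and 11.60 in ET-1-treated FAK-/- cells against 12.86 in ET-1-treated wild type. It was 2.08-fold and 2.40-fold lower, and by limma it fell by 1.16 ± 0.17 (adjusted p = 0.0276). The second probe set differed by -1.18 untreated and -1.21 after ET-1. The dimmest of the 3 differed by -1.33 untreated and by 0.01 after ET-1, and it read 10.54 in ET-1-treated wild type, against 11.89 in untreated wild type. The mean of all 3 probe sets gave -1.003 by limma, still called, and -0.82 after ET-1, which is under 2-fold. Fitted by itself, the second probe set was called by limma (adjusted p = 0.0395) and the dimmest was not (adjusted p = 0.367).

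The remaining genes differed little. Hk2 encodes hexokinase II, which traps glucose in the cell as its phosphate. It read 12.49 in untreated FAK-/- cells against 12.07 in untreated wild type, and 12.55 in ET-1-treated FAK-/- cells against 12.01 in ET-1-treated wild type, a limma difference of 0.48 ± 0.17 that did not pass (adjusted p = 0.159). Both FAK-/- arrays read above both wild-type arrays. Pgk1 encodes phosphoglycerate kinase, which makes ATP in the lower part of glycolysis. On its brightest probe set it read 14.59 in untreated FAK-/- cells against 14.71 in untreated wild type, and 14.61 in ET-1-treated FAK-/- cells against 14.81 in ET-1-treated wild type, a limma difference of -0.16 ± 0.08 (adjusted p = 0.252). Its other probe sets differed by -0.25 and -0.17 untreated and by -0.19 and -0.80 after ET-1. The brightest and the dimmest Pgk1 probe sets carry the x mark.

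Ldha encodes the lactate dehydrogenase subunit that favours lactate from pyruvate. It read 14.25 in untreated FAK-/- cells against 14.47 in untreated wild type, and 14.22 in ET-1-treated FAK-/- cells against 14.50 in ET-1-treated wild type, a limma difference of -0.25 ± 0.09 (adjusted p = 0.156). Ldha and Pgk1 lay near the highest value on any array (15.24), where arrays can understate a difference. Pdk1 encodes a kinase that shuts the pyruvate dehydrogenase complex. By the brightest of its 4 probe sets Pdk1 read 11.58 in untreated FAK-/- cells against 11.88 in untreated wild type, and 11.81 in ET-1-treated FAK-/- cells against 12.42 in ET-1-treated wild type, a limma difference of -0.46 ± 0.18 (adjusted p = 0.194). Its next 2 probe sets differed by -0.39 and -0.65 untreated and by -0.62 and -0.40 after ET-1, and the dimmest, which did not pass the level filter, differed by -0.07 and 0.10.

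Vegfa encodes the vascular endothelial growth factor, the classical angiogenic target of hypoxia. The brighter Vegfa probe set read 11.26 in untreated FAK-/- cells against 11.00 in untreated wild type, and 11.74 in ET-1-treated FAK-/- cells against 11.51 in ET-1-treated wild type. The limma difference between genotypes was 0.24 ± 0.15 (adjusted p = 0.368), and the other probe set differed by 0.22 and 0.15. A p that misses the threshold in this design does not show that the 5 uncalled genes were alike in both genotypes.

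**Figure D3:**
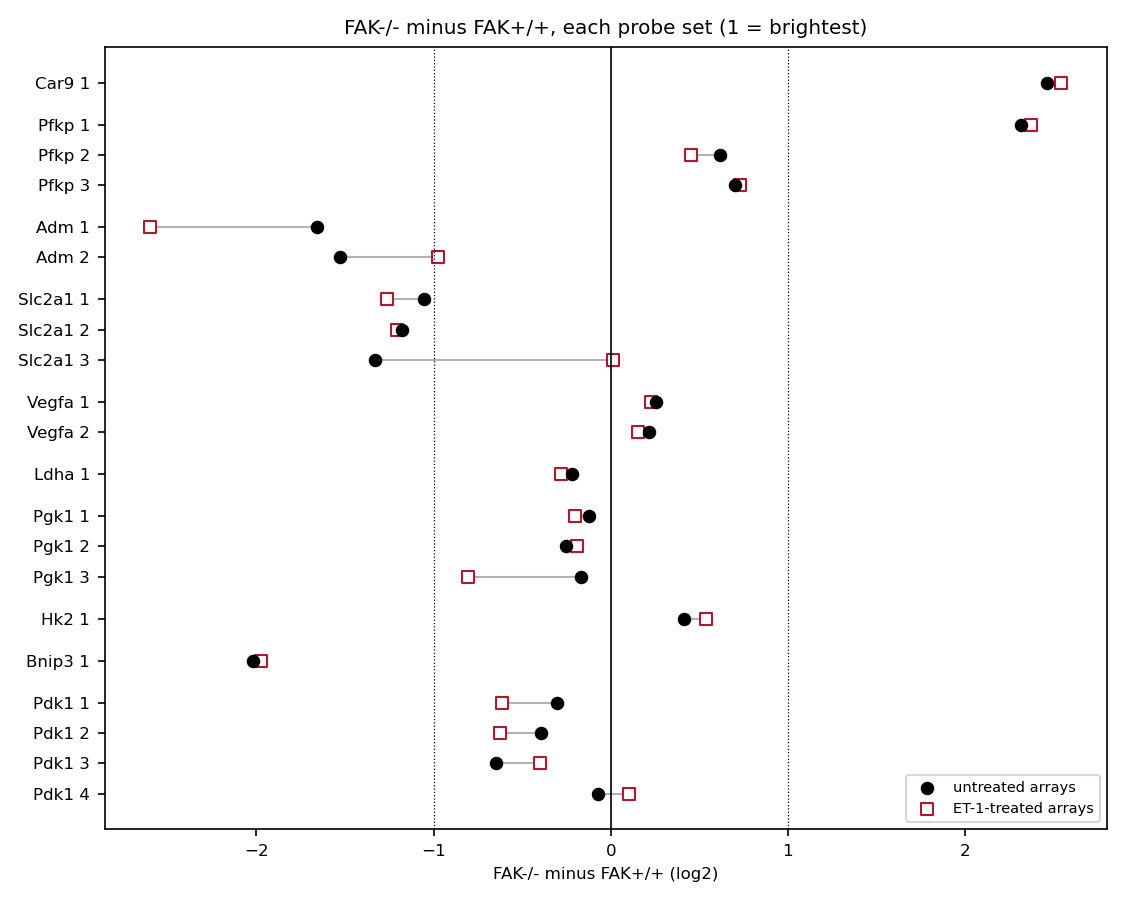
FAK-/- minus FAK+/+ difference (log2) of each probe set in untreated arrays (filled circles) and in ET-1-treated arrays (open squares), numbered from the brightest probe set of each gene, with dotted lines at 2-fold. Car9, Pfkp, Adm, Slc2a1 and Bnip3 lie beyond 2-fold in both states by their brightest probe set, and the third Slc2a1 probe set goes to 0.01 after ET-1.

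ET-1 was followed by small differences in these genes. None of the 10 reached 2-fold by its brightest probe set in FAK-/- cells, where 0.513% of all genes did, or in wild type, where 1.95% did. By limma 0 of the 10 genes and 0 of 12290 (0.0%) differed after ET-1 averaged over genotypes, with a lowest adjusted p of 0.780 in both cases. At an unadjusted p under 0.05 the counts were 1 of the 10 and 643 of 12290, or 5.23%. The 1 gene was Vegfa. Its brighter probe set read 11.74 with ET-1 against 11.26 without in FAK-/- cells, and 11.51 with ET-1 against 11.00 without in wild type, a difference of 0.48 and 0.51. Its other probe set differed by -0.09 and -0.02, so the probe sets of Vegfa did not share this difference.

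Bnip3 read higher with ET-1 in both genotypes, by 0.32 in FAK-/- cells and 0.28 in wild type, and Car9 differed by -0.23 and -0.30. Pdk1 differed by 0.23 in FAK-/- cells and 0.54 in wild type. After ET-1 the brightest Adm probe set differed by -0.15 in FAK-/- cells and 0.79 in wild type, and the other Adm probe set by -0.06 and -0.61. The Adm probe sets thus went opposite ways in wild type. The third Pgk1 probe set (0.54) and the third Slc2a1 probe set (-1.35) also stood apart from the others of their gene in wild type, while in FAK-/- cells no probe set of the 10 genes differed by more than 0.48. All of these wild-type values rest on the array whose control transcripts differed. The knockout minus wild-type difference between both ET-1 differences reached 2-fold in none of the 10 genes, against 2.9% of all genes.

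**Figure D4:**
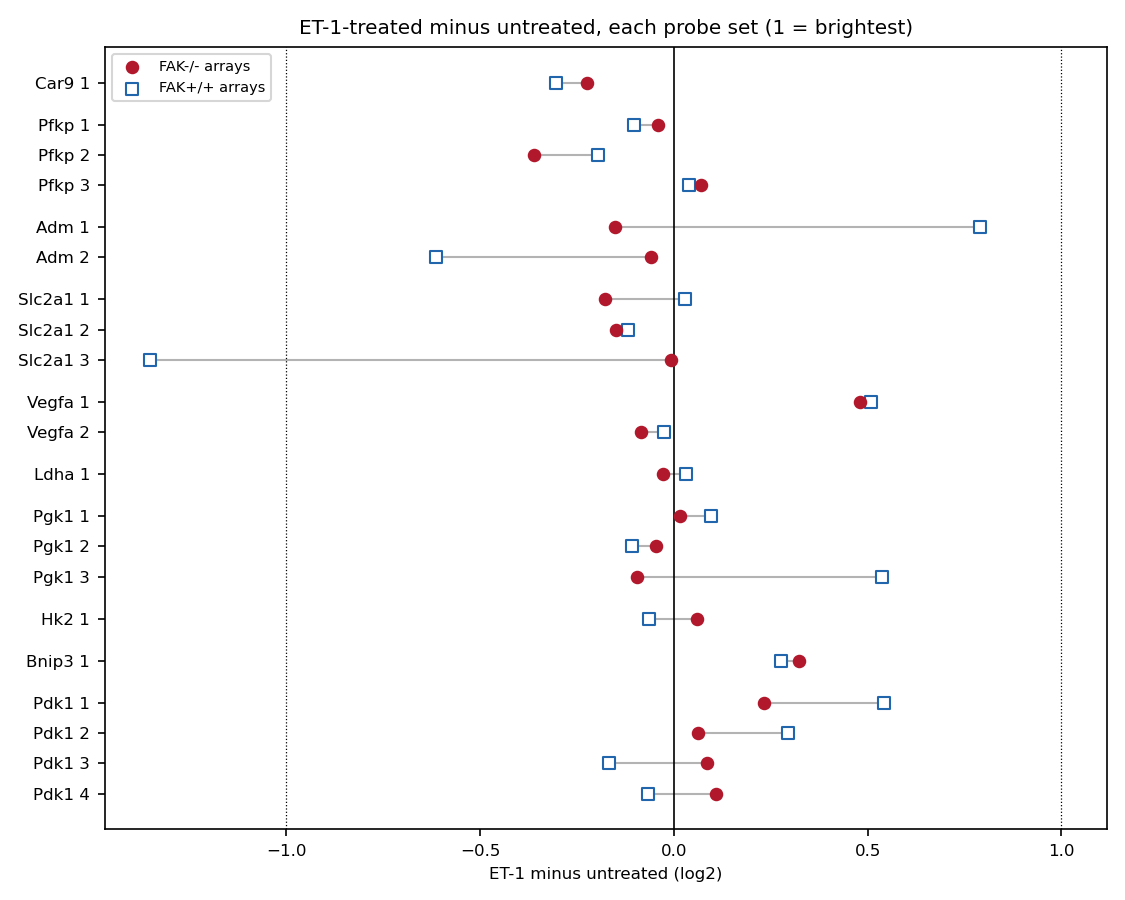
ET-1-treated minus untreated difference (log2) of each probe set in FAK-/- arrays (filled circles) and FAK+/+ arrays (open squares), numbered from the brightest probe set of each gene, with dotted lines at 2-fold. Only the third Slc2a1 probe set in FAK+/+ arrays (-1.35) lies beyond 2-fold.

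Lists of genes of the same steps, also written with earlier results of these data known, were set beside the 10. Counts include any of the 10 on a list. Without them, limma called 1 of 5 transporters higher in FAK-/- cells and 1 lower, and 1 of 14 glycolytic enzymes higher and 2 lower. It called 1 of 15 angiogenic and vasoactive genes higher and 7 lower, and 2 of 8 carbonic anhydrases and acid carriers higher and 2 lower. Of 11 mitophagy genes, 1 was higher and 0 lower. For glucose entry, 1 of 6 transporters tested rose and 2 fell in FAK-/- cells by limma. Slc2a3, which encodes the high-affinity transporter GLUT3, rose by 3.78 ± 0.30 (adjusted p = 0.00831), the opposite direction to Slc2a1. Slc2a3 read 12.78 in untreated FAK-/- cells against 9.54 in untreated wild type, and 12.70 in ET-1-treated FAK-/- cells against 8.38 in ET-1-treated wild type. Its 4 probe sets were unequal, from 0.03 to 3.24 in untreated cells. Slc2a10, a transporter of the same family, fell by 0.83 ± 0.15 (adjusted p = 0.0446). With every probe set averaged, Slc2a3 differed by 1.91 and Slc2a10 by -1.63.

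Of 17 glycolytic enzymes tested, 2 rose, 2 fell and 13 were not called, and the list median was 0.04 averaged over treatments. Pfkp rose and so did Aldoc, the brain-type aldolase, by 1.88 ± 0.16 (adjusted p = 0.00923). The 2 probe sets of Aldoc were unequal, at 0.23 and 1.63 in untreated cells, and their mean put the difference at 1.02. Hk1, the hexokinase of most tissues, fell by 2.17 ± 0.18 (adjusted p = 0.00918), and it read 10.60 in untreated FAK-/- cells against 12.57 in untreated wild type. Eno3, the muscle-type enolase, fell by 2.71 ± 0.31 (adjusted p = 0.0164). The phosphofructokinases of liver and muscle type, Pfkl (-1.18 ± 0.27, adjusted p = 0.0695) and Pfkm (0.31 ± 0.26, adjusted p = 0.509), were not called by limma. The brightest Pfkl probe set differed by -1.61 untreated and by -0.75 after ET-1. Its 3 probe sets ran from -1.61 to -0.05 untreated, and their mean put the limma difference at -0.72. The widely expressed forms Aldoa (0.16), Gapdh (0.18) and Pkm (-0.12) were not called either. With its 3 probe sets averaged Gapdh differed by 0.73, while in untreated cells its probe sets differed by 0.13 to 0.15. Hexokinase, phosphofructokinase, aldolase and enolase each exist in several isoforms, and no test of isoforms against one another was made.

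Among 15 genes for the fate of lactate and pyruvate, 2 rose and 1 fell by limma. Ldhb, the lactate dehydrogenase subunit of heart type, rose by 1.40 ± 0.22 (adjusted p = 0.0302), while Ldha did not pass. The lactate carrier Slc16a1 (MCT1) rose by 1.44 ± 0.20 (adjusted p = 0.0243), a difference that was 0.85 with its 2 probe sets averaged. The hypoxia-induced carrier Slc16a3 (MCT4) differed by 0.64 and was not called. Pdk4, a kinase of the same family as Pdk1, fell by 1.99 ± 0.31 (adjusted p = 0.0307), and Pdk3 (0.39) was not called. Pdk4 read 7.12 in untreated FAK-/- cells against 8.53 in untreated wild type, and 7.08 in ET-1-treated FAK-/- cells against 9.64 in ET-1-treated wild type. It passed the level filter only through the ET-1-treated wild-type array, whose control transcripts differed, so the size of its difference is uncertain. Of 4 genes that set the level of the activator of phosphofructokinase, Pfkfb3 rose by 0.93 ± 0.12 (adjusted p = 0.0197), a difference that was 0.45 when both probe sets were averaged. Among 6 pentose phosphate enzymes 0 were called, and their untreated median was 0.57, and 1 of 19 tricarboxylic acid cycle enzymes fell, Ogdh at -0.71 ± 0.14 (adjusted p = 0.04997).

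Of 13 oxygen-sensing genes tested, 2 rose and 0 fell by limma, a share of 15.4% beside 13.6% of all genes. Epas1, which encodes the alpha subunit HIF-2α, rose by 2.64 ± 0.21 (adjusted p = 0.00831), and it read 12.95 in untreated FAK-/- cells against 10.05 in untreated wild type, and 13.19 in ET-1-treated FAK-/- cells against 10.81 in ET-1-treated wild type. Arnt2, a partner subunit, rose by 1.77 ± 0.10 (adjusted p = 0.00586). Both rested mainly on the brightest probe set. The 2 probe sets of Epas1 differed by 0.69 and 2.90 in untreated cells and the 3 of Arnt2 by 0.03 to 1.84, and the means of all probe sets put the limma differences at 1.57 and 0.65. The other alpha subunit gene Hif1a read 13.75 to 13.96 in all 4 arrays by its brightest probe set and differed by -0.15 ± 0.11 (adjusted p = 0.436). The 4 probe sets of Hif1a did not share a direction, from -0.60 to 0.72 in untreated cells, and their mean put the limma difference at -0.25. The VHL gene differed by 0.13, and the prolyl hydroxylase genes Egln1 (-0.56, adjusted p = 0.136) and Egln3 (1.001, adjusted p = 0.0648) were not called by limma. These are transcript levels, and the alpha subunits are controlled largely as proteins, which were not measured.

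Of 33 other hypoxia targets tested, 7 rose and 3 fell by limma and 23 were not called, a share of 30.3% beside 13.6% of all genes, with a list median of 0.02 averaged over treatments. Apart from Slc2a3, the transcriptional repressors Mxi1 (1.13) and Bhlhe40 (1.08) and the heme oxygenase Hmox1 (1.04) rose, with Mxi1 at 0.70 by the mean of its 2 probe sets. Angptl4, a secreted inhibitor of lipoprotein lipase, fell by 1.98 ± 0.10 (adjusted p = 0.00586), the collagen crosslinker Lox fell by 1.26 ± 0.17 and Ndrg1 fell by 0.85 ± 0.14 (adjusted p = 0.0372). Ankrd37 differed by 0.26 and Ddit4, an inhibitor of mTOR signalling, by 2.05 ± 0.44, and neither passed limma (adjusted p = 0.301 and 0.0624). The second probe set of Angptl4 differed by -0.18 in untreated cells, so its fall rests on the brightest one. Like the 10 genes, this list moved both ways.

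Among 17 angiogenic and vasoactive genes tested 1 rose and 8 fell by limma, and their median difference was -0.44 without and -0.37 with ET-1, beside 0.02 and -0.03 over all genes. Vegfc and Vegfd, growth factors for lymphatic vessels, fell by 4.42 ± 0.31 (adjusted p = 0.00752) and 2.82 ± 0.34 (adjusted p = 0.0179), whereas Vegfa (0.24) and Vegfb (0.07) were not called. Nrp1, a co-receptor for these factors, fell by 1.98 ± 0.23, and the angiopoietins Angpt1 (-1.28) and Angpt2 (-1.13) fell. The FAK-/- values of Vegfc (7.62 and 6.92), Angpt1 (8.68 and 8.16) and Angpt2 (7.999 and 7.916) lay below the median of all values, so these genes passed the level filter through wild type and the size of their differences is uncertain. The second probe sets of Angpt1 and Angpt2 differed by 0.19 and -0.01 in untreated cells, so both falls rest on the brightest probe set alone. The 1 gene that rose was Edn1, the gene for ET-1, at 1.03 ± 0.16 (adjusted p = 0.0308), named after its value was seen. Of 9 carbonic anhydrases and acid carriers tested 3 rose and 2 fell. Beside Car9, the secreted carbonic anhydrase Car6 rose by 1.96 ± 0.23 and the bicarbonate carrier Slc4a4 by 1.31 ± 0.14, while the cytosolic Car13 (-1.34) and the mitochondrial Car5b (-1.11) fell. The 5 probe sets of Slc4a4 ranged from -0.10 to 1.44 in untreated cells, and their mean put the limma difference at 0.93. Car13 (8.35 and 7.99) and Car5b (7.85 and 7.94) were likewise below that median in FAK-/- cells, with the same limit on the size of the difference. Of 12 mitophagy genes, Bnip3 fell and Gabarapl1, which encodes an autophagosome protein, rose by 1.06 ± 0.19 (adjusted p = 0.044).

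**Figure D5:**
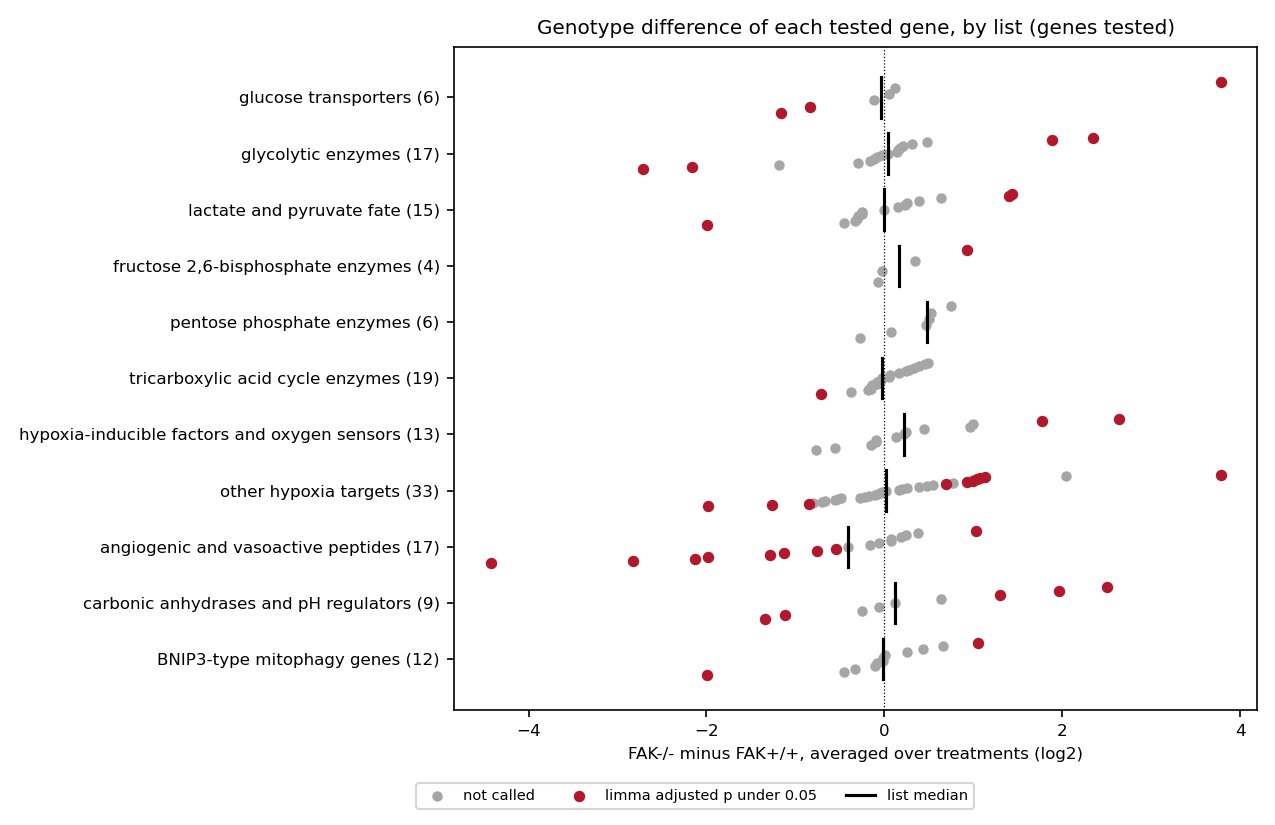
FAK-/- minus FAK+/+ difference averaged over treatments (log2) of each tested gene, 1 row per list with the number of genes tested, ordered by value within a row. Red points passed limma at an adjusted p under 0.05, grey points did not, and black bars are list medians; 8 of the 9 called angiogenic and vasoactive genes lie below 0.

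Markers of other cell types moved with genotype. Over all 12290 genes limma called 6.6% higher in FAK-/- cells and 7.05% lower. Of 14 fibroblast markers tested 10 fell and 1 rose in FAK-/- cells by limma, among them the surface protein Thy1 (8.95 and 6.85 in FAK-/- cells against 13.01 and 13.46 in wild type, untreated and with ET-1). Of 8 mesothelial markers 4 rose and 1 fell, and their mean level was 12.68 untreated and 12.42 with ET-1 in FAK-/- cells, against 11.00 and 9.25 in wild type. The mesothelial transcription factor Wt1 read 13.43 and 13.41 in FAK-/- cells, against 10.20 and 8.47 in wild type. Of 9 epithelial markers tested 4 rose and 1 fell, and their mean level over 11 genes was 10.36 and 10.10 in FAK-/- cells, against 9.62 and 8.90 in wild type. The marker that fell was the same gene on the mesothelial and epithelial lists, Krt19 (-2.98), so these counts are not separate. Endothelial markers passed the level filter for 2 of 9 genes, with mean levels of 8.10 to 8.15 in all 4 arrays, and macrophage, skeletal muscle and neuronal marker means lay between 8.05 and 8.62. Of 5 macrophage markers tested 1 rose (Csf1r, 1.09) and 1 fell (Cd14, -0.65) by limma. Of 3 neuronal markers tested 1 fell (Map2, -1.84). Cd14 and Map2 read below the median of all values in FAK-/- cells. No endothelial or skeletal muscle marker was called. In these bulk samples fewer cells of a type and less RNA per cell cannot be told apart, and the part of these marker differences in the values of Car9, Bnip3 and the other genes was not tested. Housekeeping genes had a median genotype difference of 0.02 averaged over treatments. Of 12 tested 1 rose (Tfrc, 0.70) and 1 fell (B2m, -0.79) by limma, a share of 16.7% beside 13.6% of all genes. That list holds Pgk1, and Tfrc is also on the list of other hypoxia targets. The labels describe no further line of either genotype, so variation between lines and loss of FAK cannot be told apart. The annotation pairs no probe set with Ptk2, which encodes FAK, so the genotype labels were not checked against it.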

How the data were processed

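Each of 4 groups was hybridised to 1 Affymetrix mouse array from 100 ng of total RNA, per the labels' protocols. The values are log2 intensities that the authors made with RMA and deposited in 1 table, per the submitters' processing notes; no version is given in the sources used here. The 45101 probe sets ranged from 5.00 to 15.24, and the array medians from 8.89 to 8.92. RMA often reaches lower values than these, and an added offset, if there was one, would understate differences of dim genes.

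Probe sets were named through the platform annotation (34958 with 1 gene, 932 with several, 9211 not listed). A gene was represented by its probe set with the highest mean, and the 12290 genes with any value above the median of all values (8.90) were tested. An additive fit of genotype and treatment used limma 3.58.1 (lmFit, eBayes with an intensity trend, 2.996 prior degrees of freedom) in R 4.3.3, with Benjamini-Hochberg adjustment over 12290 genes. In simulated data it called 100% of 100 genes changed by 8-fold between genotypes and 23% of 100 changed by 2-fold. It also called 10 unchanged genes there. Most changes of 2-fold were thus missed in that simulation. It changed far fewer genes than the 1677 called for genotype in the data, so its shares need not hold for the data. Single differences between arrays were called at 2-fold. No correction, pseudocount or scaling was added. The alternatives changed the probe set summary, the filter, the scaling and the eBayes settings. Promoter letters were counted in RefSeq windows of 250 bases. Python 3.11.15, numpy 2.4.6, pandas 2.3.3 and matplotlib 3.10.9 were used.

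The 10 genes and the lists were chosen with earlier results of these data known. From each list at most 6 called genes with the largest differences were named, with a short set of isoforms and regulators.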

Additional observations from a re-analysis of the deposited data

Results flagged for a closer look

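The ET-1 difference had opposite signs in both genotypes for 4 of the 10 genes by the brightest probe set, and the difference between genotypes was not tested, because each value is 1 array minus another. The knockout minus wild-type difference between both ET-1 differences was -0.94 (log2) for Adm, -0.21 for Slc2a1, -0.0598 for Ldha and 0.12 for Hk2. For Slc2a1, Ldha and Hk2 it was under the SD of the same quantity over all genes tested (0.43). For Adm it was above that SD, and the other Adm probe set had the opposite sign in wild type (-0.61 against 0.79).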

How the results depend on the processing

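No genotype difference of the 10 genes changed direction under the 8 alternatives of the limma fit. The direction could change only with the mean of all probe sets or another scaling. The filter and eBayes settings, and fitting every probe set, leave the difference of the brightest probe set as it was. Of 80 values, 79 kept their side of the threshold. The exception was Ldha, at -0.26 with an adjusted p of 0.0486 by limma after another quantile normalization (the cause was not tested). Pfkp ranged from 1.20 to 2.35 (log2), with its lowest value from the mean of all its probe sets. The number of the 10 genes called for genotype was 5 or 6. The untreated comparison, which leaves out the ET-1-treated wild-type array, was picked as an alternative after seeing the data. It repeats the count of 5 at 2-fold or more given above, with no new fit, and is not a separate check. The count over all genes ranged from 1497 without the level filter to 2322 with array medians subtracted, against 1677. After ET-1, 4 genes were at 2-fold or more between genotypes with the mean of all probe sets and 6 were at 1.5-fold or more, against 5. In wild type 1 gene differed by 1.5-fold or more after ET-1 and 0 by 2-fold. No paired analysis was possible because each group has 1 array and the labels give no replicate numbers. Precision is limited by having 4 arrays.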
